A study of Homo sapiens with 6 samples.

Results

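HCT116 is a cell line from a human colorectal carcinoma. Its RNA was sequenced from cells kept for 24 h with 0.5 µM oxaliplatin (OXA) and from untreated cells (NT), with 3 libraries in each group. The genes considered here are 37 genes of the Fanconi anemia pathway and of homologous recombination, chosen by symbol. All 37 were among the 27942 genes of the deposited count table, each under a single row, and all 37 were among the 13727 genes that passed the filter on low counts. Both groups were grown in RPMI with serum to a subconfluent density, and the labels name no vehicle for the NT cells and do not say whether the libraries of a group came from separate cultures, so the p-values measure the spread between these libraries.

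Oxaliplatin binds DNA and forms crosslinks within and between strands. A crosslink between strands blocks the replication fork and is handled by the Fanconi anemia pathway. FANCM and its partners bring the core complex to the lesion, where the ubiquitin ligase subunit FANCL and the conjugating enzyme UBE2T attach ubiquitin to FANCD2 and FANCI. Nucleases gathered by SLX4 then cut the crosslink free, and the resulting break is resected and repaired with the sister chromatid by BRCA1, BRCA2, PALB2 and their partners. Most of these genes are transcribed mainly in S and G2 phase. Inherited defects in them cause Fanconi anemia or a predisposition to breast and ovarian cancer, and cells that lack them are sensitive to platinum compounds.

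The libraries held between 32979521 and 40967880 counts. Epithelial markers were present in every library, with 8451 to 10828 raw counts for EPCAM. Of 7 such markers 0 were called (3 higher at an unadjusted p under 0.05 in edgeR, and 3 higher and 1 lower with the replicate number as a term in the fit), and in 4 every OXA library lay above the NT libraries. Over all genes tested, 10.7% were higher at an unadjusted p under 0.05, and with that term 12.1% were higher and 10.9% lower. In 14.5% every OXA library lay above the NT libraries. The summed level of the 7 markers was 2160.0 to 3102 CPM (counts scaled to library size) in NT and 3511 to 4150.4 in OXA. Of the 7 markers, 4 had a positive and 3 a negative log2 fold change (range -0.38 to 1.29). KRT19 had raw counts of 6287, 15095 and 15939 in NT libraries 1 to 3 and 22533, 32691 and 33089 in OXA libraries 1 to 3. The part of these marker changes in the changes of the 37 genes was not tested. Among 9 markers of immune, stromal and endothelial cells 3 never exceeded 3 counts and only COL1A1 and VWF passed the filter. Of 17 p53 targets, listed with earlier results of these data known, 16 were higher in OXA with an adjusted p under 0.05. Among all genes tested 2.78% were higher, and the list is no independent check of the treatment. NT library 1 stood apart: its deviation from the other NT libraries followed the GC content of the transcript (Spearman rho -0.77 across 13675 genes), and the median of the 37 genes lay 0.22 log2 units above those libraries. The same rho was 0.71 and 0.47 for NT libraries 2 and 3, and -0.57, 0.64 and -0.17 for OXA libraries 1 to 3. Values without NT library 1 are given where they change a call among the 37 genes, whose median log2 fold change was then -0.30.

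Of the 37 genes, 13 were lower in OXA at an adjusted p under 0.05 by edgeR's quasi-likelihood test and 0 were higher. Among all genes tested, 2.29% were called lower and 2.78% higher. In bulk RNA, fewer cells in S or G2 phase and less RNA per cell cannot be told apart. The median log2 fold change (OXA over NT) of the 37 genes was -0.39, against 0.023 over all genes tested, and 30 of the 37 had a negative value, against 46.7% of all genes. At an unadjusted p under 0.05, 22 of the 37 were lower, against 11.1% of all genes, and 0 were higher, against 10.7%. In 25 of the 37 every OXA library lay below every NT library, which held for 14.4% of all genes tested, and in 1, FANCL, all OXA libraries were above all NT libraries, against 14.5% of all genes. Among those called, the fall was also over 1.5-fold in 11 genes, against 1.44% of all genes tested.

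The counts depended on the fit. NT and OXA libraries that carry the same number varied together. When that number entered the fit as a block, 19 of the 37 were lower, among them all 13, and 0 were higher, where 10.9% of all genes tested were lower and 12.1% higher. Leaving out NT library 1 gave 15 lower (4.11% of all genes), and leaving out NT library 2 or NT library 3 gave 7 each (1.05% and 0.498%). Without OXA library 1, 2 or 3 the number was 1, 2 and 6 (0.136%, 0.231% and 0.483% of all genes). BRIP1 passed in all 6 of these fits. When edgeR asked whether the change was beyond 1.5-fold, 0 of the 37 passed (7 at an unadjusted p under 0.05). The share of all genes passing that test was not computed, so these 2 counts have no background beside them.

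**Figure D1:**
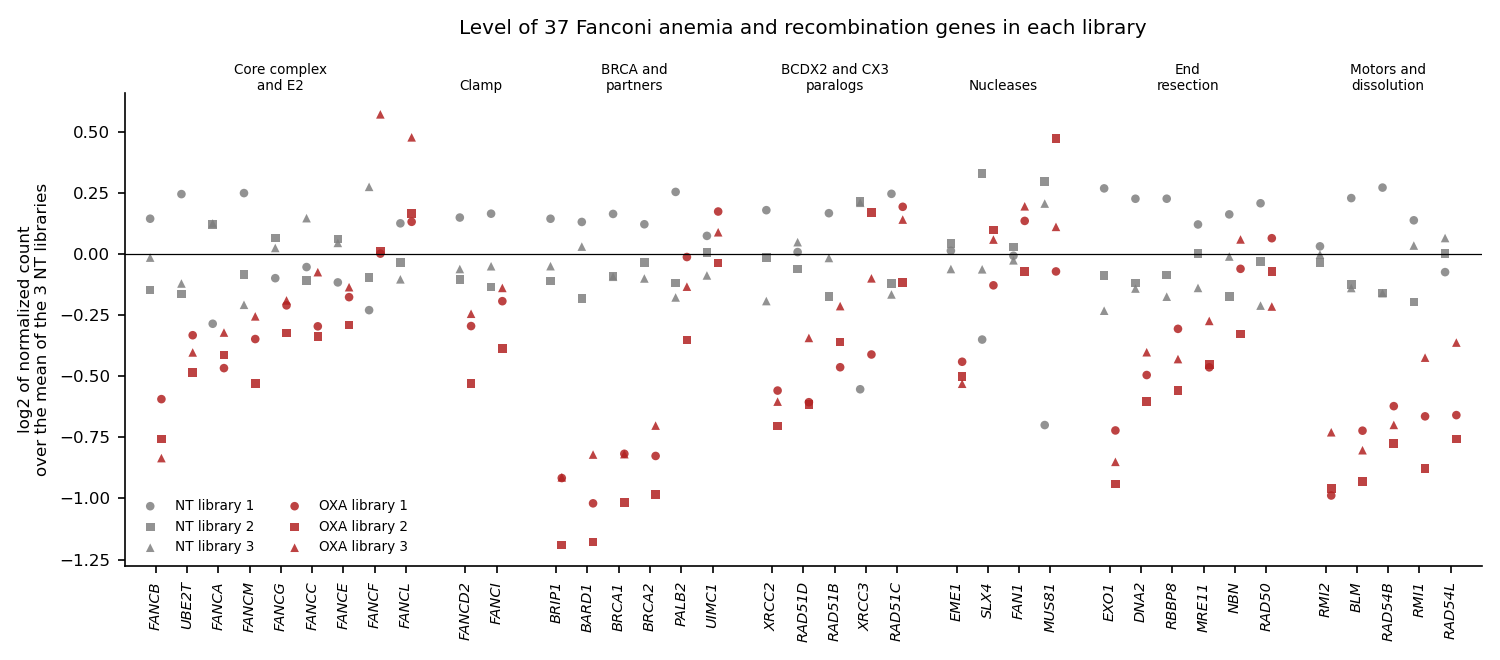
Level of each of the 37 genes in each library, as the log2 of the TMM-normalized count over the mean of the 3 NT libraries (grey, NT; red, OXA; marker shape, library number), with genes grouped by role. In 25 genes all 3 red markers lie below all 3 grey ones, among them every gene of the motors and dissolution group, and NT library 1 (grey circles) lies apart from the other NT libraries in MUS81 and XRCC3.

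In the plots and the text, a normalized count is the raw count scaled by TMM to a common library size. Values of cell cycle genes moved with those of the 37 genes. Of 20 S phase genes such as MCM2 and PCNA, 11 were lower and 0 higher, against 2.29% and 2.78% of all genes tested. Their median log2 fold change was -0.63. Their summed level was 4227 to 4318 CPM in NT and 2778 to 3132 in OXA. Of 20 mitosis genes, 5 were lower, against 2.29% of all genes tested. Their median was -0.33, with a summed level of 4463 to 5127 in NT and 3587 to 3826 in OXA. The part of cell cycle position in the changes of the 37 genes was not tested.

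Among BRCA1, BRCA2 and their partners, 4 of 6 genes fell, where 2.29% of all genes tested were called lower. The 4 had log2 fold changes of -1.001 to -0.83, and the median over the 6 was -0.86. BRIP1 (ENSG00000136492, chr17:61679139-61863559, minus strand, GRCh38), the helicase that binds the BRCT domains of BRCA1, had normalized counts of 2835, 2376 and 2478 in NT libraries 1 to 3 and 1358, 1123 and 1361 in OXA libraries 1 to 3. The lowest NT library lay far above the highest OXA library (log2 fold change -1.001 ± 0.12 SE, edgeR adjusted p = 0.00617). BRIP1 was the only one of the 37 genes to pass in each of the 6 fits that left out a library, where its highest edgeR adjusted p was 0.0423.

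BARD1 (ENSG00000138376, chr2:214725646-214809683), which forms the ubiquitin ligase heterodimer with BRCA1, had 1426, 1147 and 1330 normalized counts in NT and 642, 575 and 737 in OXA (log2 fold change -0.998 ± 0.14 SE, edgeR adjusted p = 0.00975). BRCA1 itself (ENSG00000012048, chr17:43044295-43170245) had 3482, 2920 and 2913 in NT and 1763, 1535 and 1761 in OXA (log2 fold change -0.88 ± 0.11 SE, edgeR adjusted p = 0.00802). Both subunits of the heterodimer were thus lower, with no overlap between the groups, and the intervals of their fold changes overlapped (-1.31 to -0.68 for BARD1 and -1.14 to -0.62 for BRCA1, 95% confidence). When libraries were left out in turn, BRCA1 passed in 5 of 6 fits, all but that without OXA library 1 (edgeR adjusted p = 0.0566). BARD1 passed in 4, and did not without OXA library 1 or 2 (edgeR adjusted p = 0.0706 and 0.0535).

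BRCA2 (ENSG00000139618, chr13:32315086-32400268), which acts on resected DNA during strand exchange, had 1213, 1089 and 1040 normalized counts in NT and 629, 564 and 685 in OXA (log2 fold change -0.83 ± 0.12 SE, edgeR adjusted p = 0.0115). Every OXA library lay below every NT library here too. BRCA2 also passed in 4 of the 6 fits, and did not without OXA library 1 or 2 (edgeR adjusted p = 0.0789 and 0.0658). With the authors' gene-specific normalization factors the log2 fold change of BRCA2 was -0.52 and the call was lost (edgeR adjusted p = 0.211), whereas BRIP1, BARD1 and BRCA1 kept theirs.

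PALB2 and UIMC1 had groups that overlapped, and neither passed. PALB2, the bridge between BRCA1 and BRCA2, had 1186, 916 and 879 normalized counts in NT and 986, 778 and 906 in OXA (log2 fold change -0.16, 95% confidence interval -0.51 to 0.19, edgeR adjusted p = 0.604). UIMC1 encodes RAP80, which directs the BRCA1-A complex to ubiquitin chains at breaks. It had 906, 864 and 809 in NT and 971, 838 and 915 in OXA (log2 fold change 0.08, interval -0.17 to 0.33, edgeR adjusted p = 0.725). The upper ends of the BRCA1, BARD1, BRIP1 and BRCA2 intervals lay below the lower ends for PALB2 and UIMC1, whereas a test of the difference between genes was not run.

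**Figure D2:**
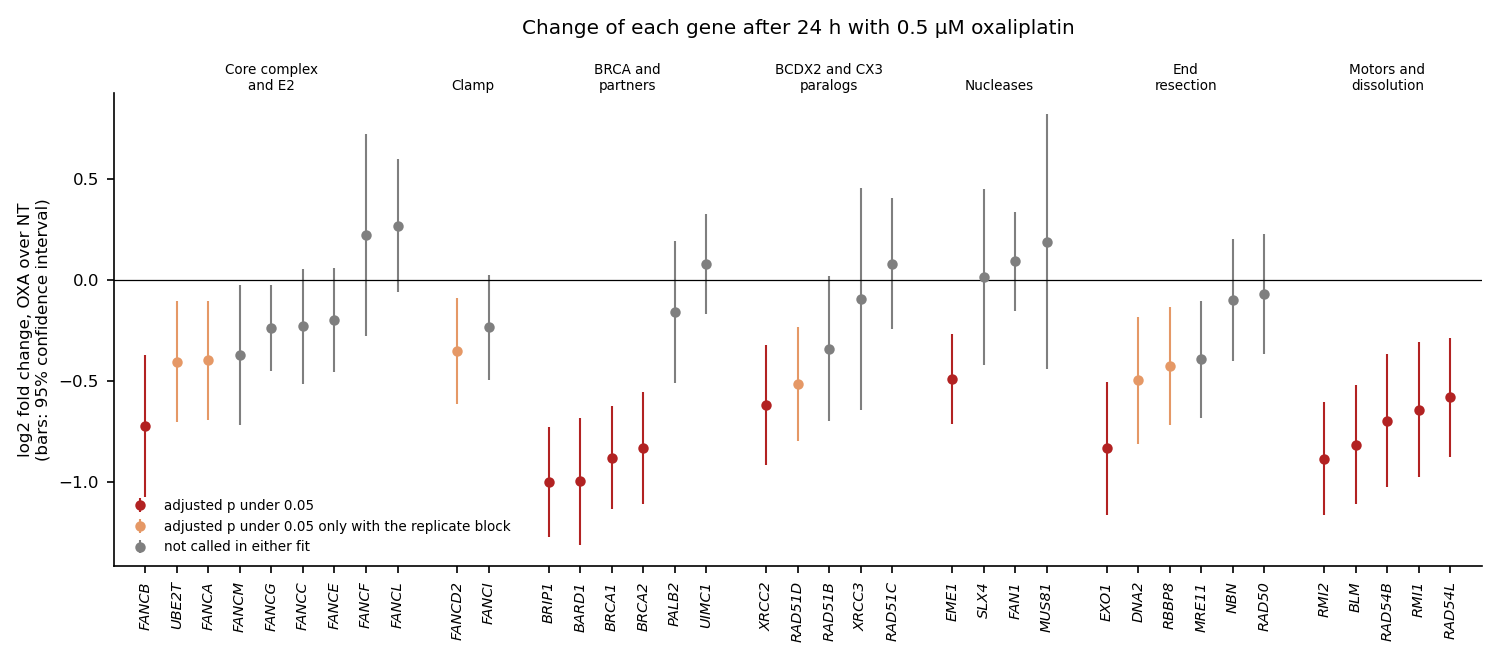
Log2 fold change (OXA over NT) of each of the 37 genes by role, with bars for the 95% confidence interval from edgeR. Red genes had an adjusted p under 0.05, orange genes only under the replicate block, and grey genes in neither fit; the 13 red genes lie between -1.001 and -0.49.

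The 5 genes for strand exchange motors and junction dissolution were all lower with an adjusted p under 0.05, against 2.29% of all genes tested. In all 5 every OXA library lay below every NT library, which held for 14.4% of all genes tested. BLM, RMI1 and RMI2 form, with topoisomerase III alpha, the complex that dissolves joined DNA molecules without crossing over. RMI2 (ENSG00000175643, chr16:11249619-11381662) had 702, 671 and 686 normalized counts in NT and 346, 353 and 414 in OXA (log2 fold change -0.89 ± 0.12 SE, edgeR adjusted p = 0.00975). BLM (ENSG00000197299, chr15:90717346-90816166), the helicase of the complex, had 2954, 2313 and 2289 in NT and 1527, 1321 and 1444 in OXA (log2 fold change -0.82 ± 0.13 SE, edgeR adjusted p = 0.0153). RMI1 (ENSG00000178966, chr9:83980798-84004074) had 2346, 1861 and 2184 in NT and 1345, 1160 and 1589 in OXA (log2 fold change -0.64 ± 0.14 SE, edgeR adjusted p = 0.0474).

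The spread differed between these genes: RMI2 was nearly constant among the NT libraries, whereas OXA library 3 was the highest treated library for both RMI genes. The topoisomerase of the complex, TOP3A, which is not among the 37, did not pass (log2 fold change -0.22, edgeR adjusted p = 0.242). RAD54L and RAD54B encode motor proteins that drive strand exchange. RAD54B (ENSG00000197275) had 1648, 1222 and 1221 normalized counts in NT and 886, 797 and 840 in OXA (log2 fold change -0.70 ± 0.14 SE, edgeR adjusted p = 0.0363). RAD54L (ENSG00000085999, chr1:46246461-46278480) had 1214, 1280 and 1338 in NT and 809, 757 and 994 in OXA (log2 fold change -0.58 ± 0.13 SE, edgeR adjusted p = 0.0444).

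When libraries were left out in turn, RMI2 passed in 4 of 6 fits (not without OXA library 1 or 2), BLM in 3 (those without an NT library), RAD54L in 2 (without NT library 1 or OXA library 3), and RMI1 and RAD54B only without NT library 1. The edgeR adjusted p in the other fits was at most 0.189. RAD54L shared 19.9% of its exon bases with LRRC41 on the opposite strand, whose log2 fold change was 0.44. RAD54B shared 66.0% with FSBP on the same strand, whose log2 fold change was -0.40. The strand setting of the counting is not given in the sources used here, so how reads were divided between RAD54L and LRRC41 is uncertain. For RAD54B and FSBP, on the same strand, no strand setting separates the reads, and their division is also uncertain.

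Promoters of members that fell together were examined for words bound by cell cycle regulators. E2F factors bind TTTSSCGC (S is C or G), searched as TTTCCCGC, TTTCGCGC, TTTGCCGC and TTTGGCGC. The CHR, bound by the DREAM and MuvB complexes, was searched as TTTGAA, and the site of NF-Y as CCAAT, all on both strands, from 250 bases before to 50 after each RefSeq start (GRCh38.p14). Sequences were found for 32 of the 37 genes. An E2F word was present at a start of 6 of the 32 genes (18.8%), against 6.59% of the tested genes in the table. Of the 11 matched genes called lower, 3 held it (XRCC2, EXO1 and RMI1), and of the 21 others 3 did (FANCA, FANCC and FANCD2). CCAAT was present in 13 of the 32 (40.6%, against 43.2%) and the CHR word in 3 (9.38%, against 13.5%). BRCA1, BARD1 and BRCA2 held no E2F word in these windows, which says nothing of the factors themselves.

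Shown here are stretches from 200 to 16 bases before a RefSeq start of BRIP1, BLM and RMI1. BRIP1, which passed without each single library, and BLM have 3 CCAAT words each, and RMI1 has an E2F word upstream of this start. Outside the stretch shown, the window of BRIP1 also holds 1 CHR word. The window of another RMI1 start (chr9:83980109-83980408) holds 2 CCAAT words and 0 E2F words. XRCC3, which was not called, holds 5 CCAAT words. Lower case is reference sequence from RefSeq, 5′ to 3′ on the strand of the gene, and capitals mark a searched word on either strand. Their positions in GRCh38.p14 are chr17:61863544-61863728 (minus strand), chr15:90717146-90717330 and chr9:83980605-83980789 (both plus strand). The starts are those of RefSeq. In GENCODE the BRIP1 exon begins further upstream, so chr17:61863544-61863559 of its stretch, with the word nearest the start, is exonic there, and chr9:83980605-83980631 of the RMI1 stretch is exon of HNRNPK on the opposite strand.
BRIP1: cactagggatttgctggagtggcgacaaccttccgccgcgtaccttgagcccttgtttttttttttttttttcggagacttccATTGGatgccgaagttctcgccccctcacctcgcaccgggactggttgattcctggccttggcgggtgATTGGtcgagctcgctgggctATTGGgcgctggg
BLM: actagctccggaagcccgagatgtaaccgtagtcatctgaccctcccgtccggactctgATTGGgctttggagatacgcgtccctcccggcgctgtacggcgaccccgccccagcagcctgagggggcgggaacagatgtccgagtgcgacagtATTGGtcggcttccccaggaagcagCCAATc
RMI1: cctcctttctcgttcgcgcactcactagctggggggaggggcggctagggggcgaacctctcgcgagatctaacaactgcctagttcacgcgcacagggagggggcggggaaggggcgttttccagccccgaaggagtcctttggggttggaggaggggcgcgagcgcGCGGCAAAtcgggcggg
The CCAAT words of BRIP1 began 117, 49 and 28 bases before the RefSeq start, those of BLM 141, 46 and 21, and the E2F word of RMI1 32.

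Among 6 genes of end resection, EXO1 fell, and the others did not pass the threshold, where 2.29% of all genes tested were called lower. EXO1 (ENSG00000174371, chr1:241847967-241895148), a nuclease that extends single-stranded DNA at breaks, had 3183, 2488 and 2250 normalized counts in NT and 1601, 1376 and 1465 in OXA (log2 fold change -0.83 ± 0.14 SE, edgeR adjusted p = 0.021). NT library 1 was the highest, and without it the log2 fold change was -0.68 (edgeR adjusted p = 0.00548). EXO1 passed in the 3 fits without an NT library and in none without an OXA library (edgeR adjusted p of at most 0.104).

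DNA2, which extends resection in parallel with EXO1, had 1039, 818 and 805 normalized counts in NT and 630, 584 and 672 in OXA (log2 fold change -0.50, edgeR adjusted p = 0.0811). RBBP8 encodes CtIP, which starts resection together with the MRE11 complex, and had 6237, 5021 and 4723 in NT and 4311, 3619 and 3956 in OXA (log2 fold change -0.43, edgeR adjusted p = 0.0999). Neither gene had overlapping groups, and both passed under the replicate block (edgeR adjusted p = 0.026 for DNA2 and 0.0122 for RBBP8).

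The 3 subunits of the MRE11 complex, which binds and trims DNA ends, gave no call in either fit. RAD50 had 4417, 3744 and 3304 normalized counts in NT and 4000, 3639 and 3295 in OXA (log2 fold change -0.07, interval -0.37 to 0.23, edgeR adjusted p = 0.809). Its groups overlapped over most of their range. RAD50 shared 76.9% of its exon bases with AC116366.3 on the same strand, which had a mean raw count of 38.5 against 3713. For NBN the log2 fold change was -0.10 (interval -0.40 to 0.20), and for MRE11 it was -0.39 (interval -0.68 to -0.10, edgeR adjusted p = 0.118, and 0.0541 with the block), with the groups of MRE11 not overlapping.

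Of the 9 genes of the Fanconi anemia core complex and its conjugating enzyme, 1 fell at the threshold and 3 under the replicate block. Over all genes tested the shares were 2.29% and 10.9%. FANCB (ENSG00000181544, chrX:14690388-14873255), which holds the catalytic module together with FANCL, had 332, 271 and 298 normalized counts in NT and 199, 178 and 168 in OXA (log2 fold change -0.73 ± 0.15 SE, edgeR adjusted p = 0.0394). FANCB passed only without NT library 1 among the 6 fits, and the edgeR adjusted p reached up to 0.160 in the others.

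UBE2T, the conjugating enzyme, had 2437, 1835 and 1891 normalized counts in NT and 1633, 1470 and 1555 in OXA (log2 fold change -0.40, edgeR adjusted p = 0.119, and 0.0205 with the block). FANCA, a scaffold subunit, had 2319, 3072 and 3084 in NT and 2045, 2123 and 2262 in OXA (log2 fold change -0.40, edgeR adjusted p = 0.119, and 0.023 with the block). In both genes NT library 1 was the library that stood apart, above the other NT libraries in UBE2T and below them in FANCA. Without it the log2 fold change was -0.26 for UBE2T (edgeR adjusted p = 0.120) and -0.52 for FANCA (edgeR adjusted p = 0.00944). FANCA shared 19.6% of its exon bases with ZNF276 on the opposite strand.

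The other core genes did not pass in either fit. FANCE, which links the core complex to FANCD2, had 675, 763 and 755 normalized counts in NT and 647, 597 and 666 in OXA (log2 fold change -0.20, interval -0.45 to 0.06, edgeR adjusted p = 0.352), and its groups did not overlap. FANCM, FANCG and FANCC had log2 fold changes of -0.37, -0.24 and -0.23. FANCL had 460, 412 and 392 normalized counts in NT and 462, 473 and 587 in OXA, and with FANCF it was the core gene with a positive value (log2 fold change 0.27, interval -0.06 to 0.60, and 0.22, interval -0.28 to 0.72). The catalytic subunit FANCL and FANCB of the same module thus had values of opposite sign, of which that of FANCB passed the test. The difference between them was not tested.

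FANCD2 and FANCI, which form the clamp that receives ubiquitin, were not called without the block. In both every OXA library lay below every NT library, as in 14.4% of all genes tested. FANCD2 (ENSG00000144554, chr3:10026370-10101932) had 3562, 2988 and 3077 normalized counts in NT and 2617, 2222 and 2710 in OXA (log2 fold change -0.35 ± 0.11 SE, edgeR adjusted p = 0.124, and 0.021 with the block). FANCI (ENSG00000140525, chr15:89243945-89317261) had 6783, 5508 and 5842 in NT and 5291, 4624 and 5494 in OXA (log2 fold change -0.23 ± 0.11 SE, edgeR adjusted p = 0.276, and 0.0515 with the block).

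Among the 5 genes of the BCDX2 and CX3 complexes, which assist strand exchange, XRCC2 fell, where 2.29% of all genes tested were called lower. XRCC2 (ENSG00000196584, chr7:152644776-152676193) had 950, 830 and 734 normalized counts in NT and 569, 515 and 552 in OXA (log2 fold change -0.62 ± 0.13 SE, edgeR adjusted p = 0.038). XRCC2 passed in 1 of the 6 fits without a library, that without NT library 1 (edgeR adjusted p = 0.0254, and up to 0.162 in the others). RAD51D, its direct partner in the BCDX2 complex, had 699, 666 and 719 in NT and 457, 454 and 548 in OXA (log2 fold change -0.51, edgeR adjusted p = 0.056, and 0.013 with the block). RAD51D also passed without NT library 1 (edgeR adjusted p = 0.0411) and in DESeq2 (adjusted p = 0.0162). The groups did not overlap in either gene.

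RAD51C, which is shared by both complexes, had 2585, 2005 and 1943 normalized counts in NT and 2492, 2012 and 2403 in OXA (log2 fold change 0.08, interval -0.25 to 0.41, edgeR adjusted p = 0.795). RAD51B, another member of BCDX2, stood at -0.34 on the log2 scale (edgeR adjusted p = 0.257). XRCC3, the partner of RAD51C in the CX3 complex, had 406, 691 and 689 normalized counts in NT and 448, 671 and 556 in OXA (log2 fold change -0.09, interval -0.64 to 0.46). Libraries 1 were the lowest in both groups for XRCC3, and KLC1 on the opposite strand covered 76.7% of its exon bases.

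Of the 4 nucleases that cut at crosslinks and joined molecules, EME1 fell, where 2.29% of all genes tested were called lower. EME1 (ENSG00000154920, chr17:50373220-50381483), the regulatory partner of MUS81, had 1063, 1085 and 1009 normalized counts in NT and 776, 744 and 729 in OXA (log2 fold change -0.49 ± 0.096 SE, edgeR adjusted p = 0.0318). The libraries of each group were close together, and the fall was less than 1.5-fold. EME1 passed in 1 of the 6 fits without a library, that without NT library 1 (edgeR adjusted p = 0.0204, and up to 0.145 in the others). It shared 16.4% of its exon bases with LRRC59 on the opposite strand, whose log2 fold change was 0.16.

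MUS81, the catalytic subunit, had 224, 447 and 420 normalized counts in NT and 346, 505 and 393 in OXA (log2 fold change 0.19, interval -0.44 to 0.82), and NT library 1 was the lowest by far. Without NT library 1 its log2 fold change was -0.06. MUS81 shared 13.9% of its exon bases with CFL1 on the opposite strand, whose log2 fold change was 0.18. The mean raw count of CFL1 was 44180 against 389 for MUS81. SLX4, the scaffold for several nucleases, had 301, 481 and 367 in NT and 351, 410 and 399 in OXA (log2 fold change 0.01, interval -0.42 to 0.45, edgeR adjusted p = 0.978). FAN1, a nuclease that binds ubiquitinated FANCD2, had a log2 fold change of 0.09 (interval -0.15 to 0.34). The groups overlapped in these 3 genes.

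Levels of the 37 genes were compared per length, as RPKM, the count scaled to the length of the canonical transcript and to library size (mean ± SD, n = 3). In NT, UBE2T had 65.0 ± 10.5, RBBP8 45.2 ± 6.81 and FANCI 35.5 ± 3.88, and the lowest were SLX4 with 1.45 ± 0.347, RAD51D with 1.94 ± 0.0746 and FANCF with 2.32 ± 0.434. BRCA1 (12.2 ± 1.28) lay above its partner BARD1 (6.60 ± 0.718), and in OXA the values were 6.61 and 3.30 RPKM. EME1 (12.6 ± 0.464) lay above MUS81 (4.27 ± 1.43). The value of RAD51D depends on the transcript taken, since its canonical transcript of 9966 nt is far longer than those of the other genes of BCDX2 and CX3, which have 1559 to 4771 nt.

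The 37 genes spanned 3291 to 910440 bp in the genome, with a median of 73317 bp against 32918 bp over the tested genes, and the median GC content of their transcripts was 42.8% against 48.8%. Across the 37 genes the log2 fold change had a Spearman rho of -0.33 with the span and 0.42 with the GC content. Across the 13675 tested genes with known features the values were -0.20 and 0.28. These are descriptions across genes of the same libraries, in which the GC dependence of the counts also differed between libraries. With the block, and with the trends on GC and length taken out of each library, 27 of the 37 genes were lower and 3 higher (FANCF, FANCL and RAD51C, with log2 fold changes of 0.29, 0.32 and 0.15), where 22.3% of all genes were lower and 23.2% higher. The median log2 fold change of the 37 genes was then -0.35.

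Among 47 other genes of the pathway, 5 were lower and 0 higher at the threshold, against 2.29% and 2.78% of all genes tested. Their median log2 fold change was -0.13. PSMC3IP, an accessory factor of strand exchange, had a log2 change of -0.78 (edgeR adjusted p = 0.0428). MMS22L, which acts at stalled forks, had -0.56 (edgeR adjusted p = 0.0428), FIGNL1, an ATPase of homologous recombination, -0.55 (edgeR adjusted p = 0.0426), and the ubiquitin ligase RFWD3 -0.45 (edgeR adjusted p = 0.0483). With libraries left out in turn, PSMC3IP passed in 2 of 6 fits, and MMS22L, FIGNL1 and RFWD3 in 1 each. With the authors' gene-specific factors PSMC3IP, MMS22L, FIGNL1 and RFWD3 did not pass (edgeR adjusted p = 0.0685, 0.122, 0.0593 and 0.0692).

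Under the replicate block, 13 of the 47 were lower and 3 higher, against 10.9% and 12.1% of all genes tested. Those lower with the block but not in the reported fit were MCM8, RAD51AP1, MCM9, USP1, MND1, GEN1, SFR1 and RNF168. With the block their log2 fold changes were -0.57 to -0.36, with edgeR adjusted p of 0.00366 to 0.0241. The 3 higher genes were the crosslink nuclease subunit ERCC1 (log2 fold change 0.56, edgeR adjusted p = 0.0148 with the block), the BRCA1-A subunit BABAM1 (0.45, 0.0128) and REV3L, the catalytic subunit of translesion polymerase zeta (0.32, 0.0185). ERCC1 had 1706, 2443 and 2425 normalized counts in NT and 2976, 3658 and 3004 in OXA. The groups of ERCC1 did not overlap. In the end joining pathway, which rejoins breaks without a template, 1 of 17 genes was lower and 0 higher in the fit without the block. Over all genes tested the shares in that fit were 2.29% and 2.78%. The median log2 fold change of the 17 genes was -0.10.

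The number of the 37 genes called lower under each setting ranged from 0 in the test against a 1.5-fold change to 27 with the block and trends removed. DESeq2 called 15 (3.0% of the 19353 genes with at least 1 count, a wider set than the 13727 of the reported fit). limma-voom called 13 (2.11%), and edgeR with the authors' gene-specific factors 9 (1.46% of all genes), all 9 among the 13. The 4 genes not called with those factors were FANCB, BRCA2, XRCC2 and RAD54L. The log2 fold change of each of the 13 genes was negative in every fit.

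**Figure D3:**
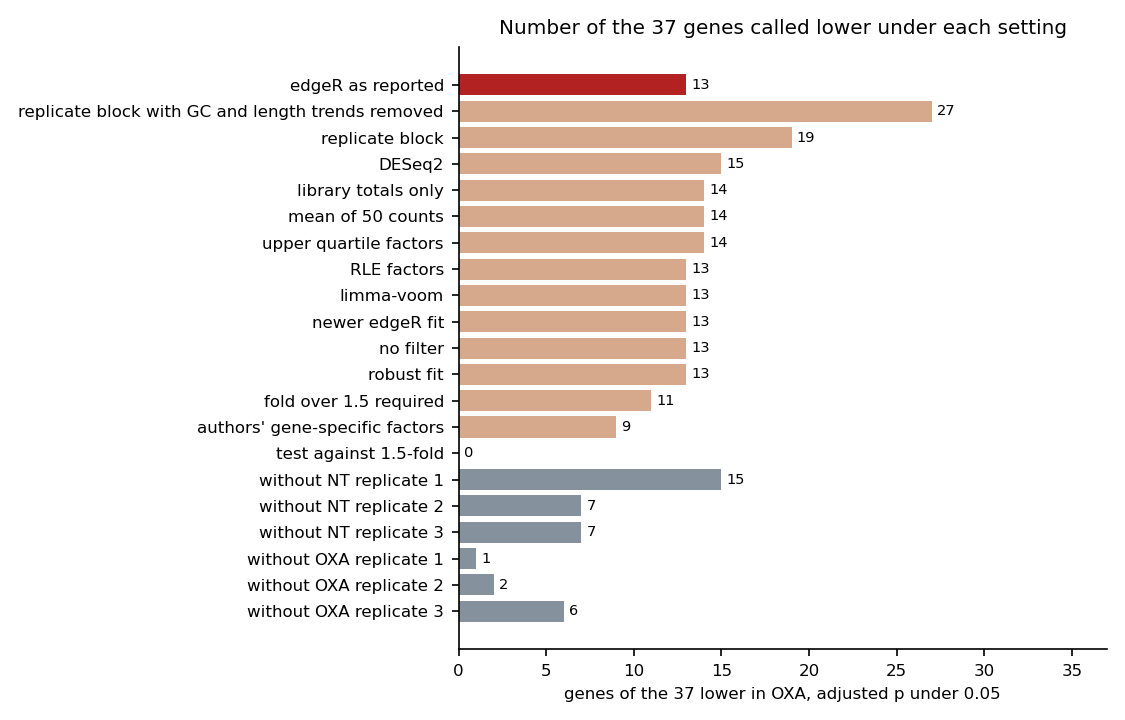
Number of the 37 genes lower in OXA at an adjusted p under 0.05 (horizontal axis) under the reported edgeR fit (red), other settings (light brown) and fits that left out 1 library each (grey). The reported fit gave 13, and leaving out OXA library 1 gave 1.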

How the data were processed

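Per the labels, stranded libraries of polyadenylated RNA were sequenced as paired reads of 100 nt. The submitters' processing notes list Trimmomatic 0.32, STAR 2.7.5b, RSEM 1.3.3, DESeq2 2.13 and the build GRCh38. The annotation and strand setting of the counting are not given in the sources used here. The authors deposited raw counts per gene, which may be rounded RSEM estimates, and a normalized signal, the count times a factor that differed between genes and libraries. That deposited signal was used only for an alternative.

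Counts were filtered with filterByExpr (minimum count 10, total 15) and normalized by TMM. The quasi-likelihood test of edgeR 4.0.16 (with limma 3.58.1 in R 4.3.3) gave OXA over NT, and p-values were adjusted by Benjamini-Hochberg across the 13727 genes tested. DESeq2 1.42.0 served as an alternative. The standard error is the estimate over the square root of F. The steps were tested on simulated counts. Positions and exons were those of GENCODE 44 (GRCh38), which also gave transcript length and GC content for 99.6% of tested genes. Intervals and floors (3 counts) cover neither PCR duplicates nor culture differences.

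Same-numbered NT and OXA libraries correlated in their deviations from the group means (0.48, 0.47 and 0.26 for libraries 1, 2 and 3, all over the limit of 0.1, and -0.41 to 0.076 between numbers). The numbers come from the labels, which do not say what they stand for.

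The 37 genes and the other lists were chosen with earlier results of these data known. Values per library are given for genes called without or with the block, and for the largest and smallest change of each role group. Of the other pathway genes those called without the block are named, except 1 that is not reported here, and HROB was matched by its gene ID. PALB2, MUS81, XRCC3, FANCL and the other pathway genes called only with the block were added after their values were seen.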

Additional observations from a re-analysis of the deposited data

How the results depend on the processing

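The 13 genes called lower among the 37 were all lower in each of the 12 settings other than leaving out a library that were fitted for single genes, and 9 of the 13 were called in all of them. The count of the 37 called lower was 27, with 3 higher, under the replicate block with GC and length trends removed, 0 in the test against a 1.5-fold change, and 1 to 15 when a library was left out. The replicate block alone gave 19 and changed 6 calls, all from none to lower. For the other genes of the pathway, the count lower was 11 in DESeq2, 1 with the authors' factors, 10 with library totals only, 9 with upper quartile factors, 3 in limma-voom, 13 with the block, 21 with block and trends removed, and 0 to 9 without a library. The count higher was 2 in DESeq2, 1 with the authors' factors, 3 with the block, 6 with block and trends removed, and 0 to 1 without a library. Over all genes tested in each setting, 3.0% were lower in DESeq2, 1.46% with the authors' factors and 2.11% in limma-voom. With the block 10.9% were lower and 12.1% higher, and with block and trends removed 22.3% and 23.2%. Without a library 0.136% to 4.11% were lower.

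Over all genes, 315 lower and 381 higher became 580 and 612 in DESeq2, 200 and 241 with the authors' factors, 1493 and 1664 with the block, and 3056 and 3186 with block and trends removed. Library totals only gave 511 lower and 350 higher, and upper quartile factors 493 lower and 348 higher, so the split of calls moved with the scaling. Without a library the range was 19 to 571 lower and 66 to 623 higher. The cause of these differences was not tested.

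Signs changed only in genes not called in the reported fit, of which FANCF and RAD51C were called higher and XRCC3 lower with block and trends removed. SLX4 had log2 fold changes of -0.039 with the authors' factors, -0.025 with library totals, -0.010 without a filter, -0.080 with block and trends removed, -0.024 with upper quartile factors, and -0.13 to 0.18 without a library. With the authors' factors UIMC1 had -0.036, MUS81 -0.036 and RAD50 0.0086. With block and trends removed RAD50 had 0.025 and NBN 0.0099. Without a library the range was -0.022 to 0.35 for FANCF, -0.030 to 0.22 for RAD51C, -0.31 to 0.042 for XRCC3, -0.064 to 0.34 for MUS81, -0.20 to 0.049 for RAD50 and -0.22 to 0.0026 for NBN. With 3 libraries per group, 2 of the 13 called genes (EME1 and RAD54L) had a fall of less than 1.5-fold.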
